A study of Mus musculus with 12 samples.

Results

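Copying the genome requires a set of proteins that loads and activates the replicative helicase at origins, primes and extends new strands, joins the lagging-strand pieces, and keeps nucleotides supplied. The genes described here are 42 mouse genes of DNA replication and nucleotide synthesis, chosen by symbol and found on the arrays through the accession of each probe. All 42 of 42 had a probe, among 21367 genes named on the arrays, and all 42 passed the filter that left 14451 genes to be tested. By role they comprised 5 genes of origin licensing, 12 of the helicase, 7 of the polymerases and primase, 6 of the sliding clamp, its loader and single-strand binding, 3 of Okazaki fragment processing, 5 of nucleotide synthesis and 4 of chromatin replication.

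RNA came from mouse embryonic fibroblasts, connective tissue cells cultured from C57BL/6 embryos (E12.5 to E13.5), and was hybridised in 1 colour to 12 arrays, 100 ng of RNA to each. The fibroblasts carried a viral vector for a hairpin that silences p53 (shp53), a viral vector for an oncogenic form of RAS (RASV12), shp53 followed by RASV12 (shp53-first cells, T in the labels) or RASV12 followed by shp53 (RASV12-first cells, TS in the labels), with 3 arrays in each of these 4 groups. Every group was transduced, and cells without a vector were not analysed here. The promoters of the vectors, the interval between the transductions, the time to harvest and the use of clones or pools are not given in the sources used here. By its title the series sets transformed cells with a senescent past beside those without one.

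In growing fibroblasts these genes are switched on together as cells leave G1 for S phase, largely through E2F transcription factors held back by the retinoblastoma protein. Licensing proteins load the MCM helicase onto origins in G1, and the remaining factors act in S phase. Cells that have stopped dividing, including senescent cells, generally carry little of these mRNAs, and p53 through the CDK inhibitor p21 is among the regulators that hold E2F targets down.

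Since many replication genes are E2F targets, the start regions of their genes were searched for E2F-type letters. The RefSeq promoter table (GRCm38.p6, 250 bases before to 50 after each annotated start) held windows for 34 of the 42 members. The 4 motifs TTTCCCGC, TTTGGCGC, TTTGCCGC and TTTCGCGC, on either strand, occurred in a window of 15 of these 34 members (44.1%) and of 704 of 27025 genes in the table (2.60%). The CCAAT box (CCAAT) occurred in 58.8% of these members and 41.1% of all genes, the GC box (GGGCGG) in 73.5% and 38.2%, and the CHR element (TTTGAA or TTCGAA) in 20.6% and 21.7%, each on either strand. These matches describe letters only, not bound sites. Stretches of 160 bases upstream of the start are shown for 4 members (licensing, helicase and clamp loader genes) whose E2F-type letters lie there, and for Prim1 and Cdc45, whose windows hold no E2F-type match and whose mRNAs were among those that rose in the cells with both vectors.

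In the first 4 stretches, written 5′ to 3′ on the strand of the gene, capitals mark the E2F-type letters, and the longer run in Mcm6 is an overlapping pair of matches on opposite strands.
Orc1, chr4:108579294-108579453, plus strand: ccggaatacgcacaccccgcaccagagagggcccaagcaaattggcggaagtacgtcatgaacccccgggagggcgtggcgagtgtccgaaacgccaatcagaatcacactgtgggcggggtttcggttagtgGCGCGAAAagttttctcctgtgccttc
Cdc6, chr11:98907991-98908150, plus strand: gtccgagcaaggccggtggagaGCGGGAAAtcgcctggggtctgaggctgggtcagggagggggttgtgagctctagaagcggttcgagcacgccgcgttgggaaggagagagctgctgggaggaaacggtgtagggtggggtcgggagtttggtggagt
Mcm6, chr1:128359706-128359865, minus strand: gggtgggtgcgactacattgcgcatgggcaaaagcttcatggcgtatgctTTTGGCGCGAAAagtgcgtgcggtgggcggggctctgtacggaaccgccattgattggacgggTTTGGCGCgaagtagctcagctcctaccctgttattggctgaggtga
Rfc3, chr5:151651209-151651368, minus strand: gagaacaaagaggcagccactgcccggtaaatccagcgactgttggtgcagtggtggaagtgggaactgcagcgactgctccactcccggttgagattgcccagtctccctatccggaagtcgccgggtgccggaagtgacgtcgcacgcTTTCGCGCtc

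In these stretches capitals mark the CCAAT box, read on the opposite strand in Cdc45.
Prim1, chr10:128015055-128015214, plus strand: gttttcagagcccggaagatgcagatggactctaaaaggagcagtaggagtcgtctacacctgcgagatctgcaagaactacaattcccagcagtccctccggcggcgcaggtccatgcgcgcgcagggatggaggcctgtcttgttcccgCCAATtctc
Cdc45, chr16:18811973-18812132, minus strand: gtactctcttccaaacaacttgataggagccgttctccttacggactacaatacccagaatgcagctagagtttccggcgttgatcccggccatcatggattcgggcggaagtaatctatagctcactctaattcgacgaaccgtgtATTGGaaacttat

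All values below are log2 processed signals minus the 75th percentile of the same array, so that 0 is a fairly bright spot, and they serve to compare arrays for a gene, never genes with each other. Every member was well above background on all 12 arrays, on each of which 56.6% to 62.4% of spots passed that mark. Trp53, the target of the hairpin, read -0.35, -0.75 and -0.58 in RASV12 cells and between -4.14 and -3.06 on the arrays of cells with the hairpin. In each group a pair of arrays lay closer (r = 0.993 to 0.998 across genes) than the remaining array lay to either (r = 0.967 to 0.981). The array outside the pair was replicate 2 of shp53 and of RASV12 cells and replicate 1 of both groups with 2 vectors. All 10 fibroblast markers were well above background on every array. The design text calls the 3 arrays of a group independent biological replicates, and the p-values measure only the spread between them. The closest pairs differed little more than spots printed repeatedly on an array, and whether they came from separate cultures was not tested. If they did not, n = 3 overstates the number of replicates.

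As group means, replication genes read higher in the cells with both vectors than in either group with 1 vector, mainly through replicates 2 and 3. Within replicate 1 the members' median difference was only 0.16 for shp53-first and 0.35 for RASV12-first against shp53 cells. Against RASV12 cells it was 0.05 and 0.26 there. Within replicates 2 and 3 these medians were 1.17 to 1.90. The median log2 difference over the 42 members was 0.87 for shp53-first and 1.06 for RASV12-first cells against shp53 cells, and 1.14 and 1.22 against RASV12 cells. Over all 14451 genes these medians were 0.03, 0.02, -0.05 and -0.07. In bulk RNA a larger share of cells that express a gene and more RNA per cell cannot be told apart. Of the 42 members, 41, 41, 40 and 40 had a positive difference in these 4 comparisons, which share their groups in pairs and are not independent of each other.

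In the limma fit a gene was called where its p, adjusted by Benjamini and Hochberg's method over all genes, was under 0.05. By this rule 11 members rose and 0 fell in shp53-first against shp53 cells, where 17.3% of all genes were called higher and 20.3% lower. In RASV12-first against shp53 cells 20 members rose and 0 fell, against 21.7% and 23.8% of all genes. In shp53-first against RASV12 cells 15 rose and 0 fell, against 10.3% and 15.1%. In RASV12-first against RASV12 cells 25 rose and 0 fell, against 17.2% and 21.7%. The lowest array with both vectors lay above the highest array with 1 vector for 17, 22, 20 and 25 members in the same order, where 25.9%, 27.8%, 18.9% and 22.8% of all genes were so separated. In the opposite direction 0, 0, 0 and 1 members were separated (Tyms in the last comparison), where 27.3%, 28.7%, 24.7% and 28.2% of all genes were.

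The counts moved with single arrays. The 11 members called in shp53-first against shp53 cells became 35 without shp53-first replicate 1 and 21 without RASV12-first replicate 1, 4 without shp53-first replicate 2 or 3, and 5 without shp53 replicate 1 or 3. The 20 called in RASV12-first against shp53 cells became 36 without RASV12-first replicate 1, 31 without shp53-first replicate 1, 8 and 6 without RASV12-first replicates 2 and 3, and 7 without shp53 replicate 1 or 3. The 15 called in shp53-first against RASV12 cells became 32 without shp53-first replicate 1, 24 without RASV12-first replicate 1, 5 without shp53-first replicate 2 or 3, 9 without RASV12 replicate 1 or 3, and 8 without RASV12 replicate 2. The 25 called in RASV12-first against RASV12 cells became 10 and 9 without RASV12-first replicates 2 and 3, and 16 and 11 without RASV12 replicates 1 and 2. An array outside a comparison enters it only through the shared estimate of spread. The shares of all genes called without single arrays are not given here, so these counts do not show a change particular to the members.

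Of the 71 calls in the 4 comparisons, 23 held with each of the 12 arrays left out in turn. They were those of Cdt1, Prim1 and Lig1 in all 4 comparisons, of Rfc4 against RASV12 cells and of Rfc3 in shp53-first cells. The others were those of Orc6 and Pold1 in RASV12-first against shp53 cells and of Gmnn, Mcm6, Mcm10, Cdc45 and Pole2 in RASV12-first against RASV12 cells. The remaining 48 missed the threshold without at least 1 array, with adjusted p-values up to 0.161. Without replicate 1 of shp53-first or of RASV12-first cells 0 calls were lost. Without replicate 2 or 3 of RASV12-first cells 29 and 31 were lost, without those of shp53-first cells 19 and 21, without shp53 replicates 1, 2 and 3 25, 5 and 26, and without RASV12 replicates 1, 2 and 3 21, 23 and 16.

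With the closest arrays of each group averaged, 1, 2, 0 and 2 members remained called in these 4 comparisons, while 11.8%, 17.2%, 2.71% and 10.3% of all genes were called. They were Cdt1 against shp53 in the shp53-first cells, and Cdt1 with Prim1 against either 1-vector group in the RASV12-first cells. Without the 4 arrays outside the closest pairs, 41, 40, 40 and 40 members were called higher and 0, 0, 0 and 1 lower, with 68.3%, 72.3%, 58.2% and 66.8% of all genes called. That last setting keeps only arrays that differ from each other by 1.1 to 1.35 times the SD of probes printed repeatedly on an array, against 3.27 to 6.58 times for the pairs it removes.

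**Figure D1:**
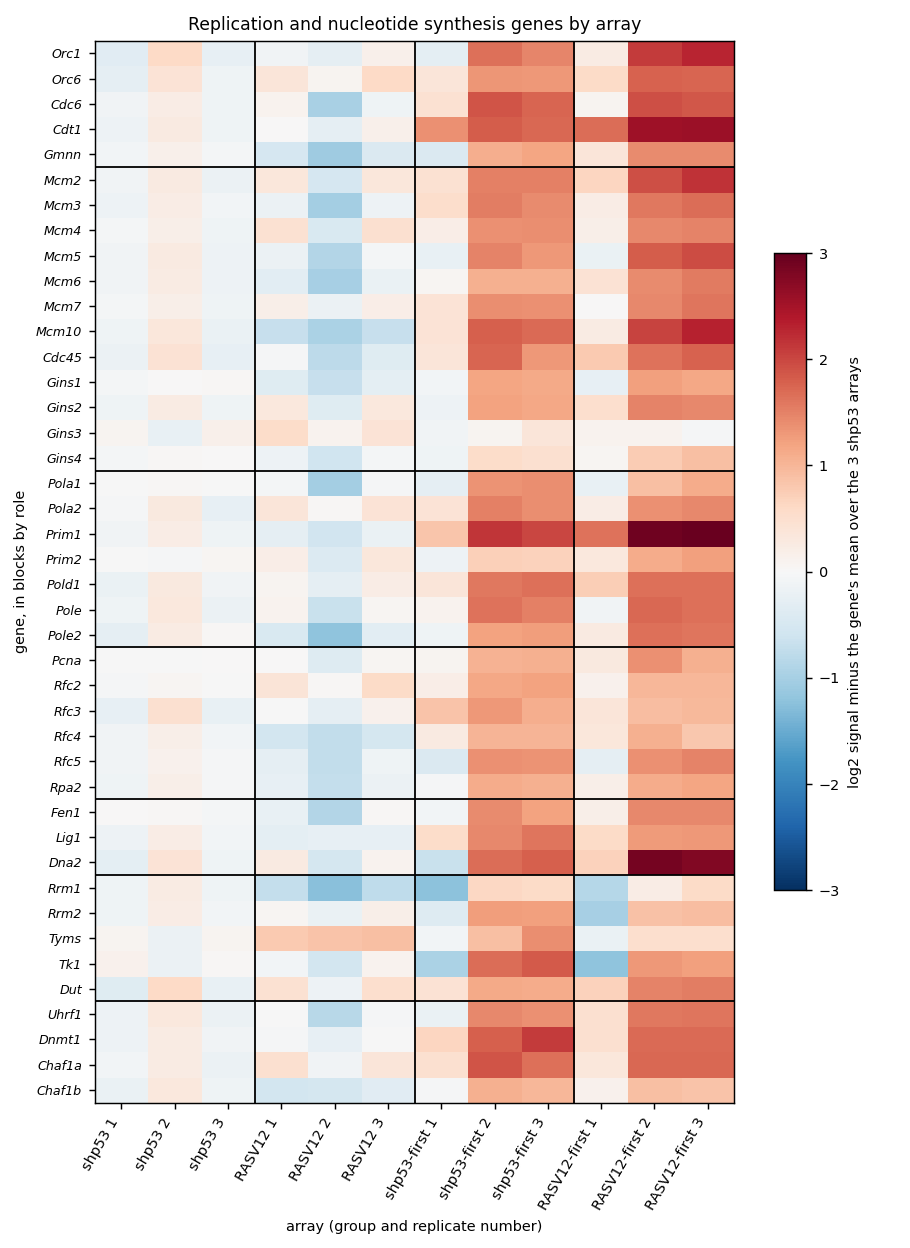
Log2 signal of the 42 genes (vertical axis, in blocks by role from origin licensing at the top to chromatin replication at the bottom) on the 12 arrays (horizontal axis), each minus the gene's mean over the 3 shp53 arrays. Replicates 2 and 3 of both groups with 2 vectors are red for nearly every gene, Gins3 being the palest, while replicate 1 of these groups is close to white, with Cdt1 and Prim1 still red and Rrm1, Rrm2 and Tk1 blue.

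Among the origin licensing genes, Cdt1, which loads the MCM helicase onto origins, changed most firmly. On the arrays of replicates 1, 2 and 3, Cdt1 read 1.53, 1.96 and 1.56 in shp53 cells, 1.69, 1.42 and 1.83 in RASV12 cells, 3.05, 3.51 and 3.40 in shp53-first cells and 3.35, 4.23 and 4.26 in RASV12-first cells. All 6 arrays with both vectors lay above all 6 arrays with 1, replicate 1 included. The log2 difference was 1.64 ± 0.25 (SE, n = 3) in shp53-first and 2.26 ± 0.25 in RASV12-first cells against shp53 cells (adjusted p = 0.000723 and 6.48e-05), and 1.67 ± 0.25 and 2.30 ± 0.25 against RASV12 cells (adjusted p = 0.00139 and 9.31e-05), folds of 3.11, 4.80, 3.18 and 4.92. Of these, the comparison of shp53-first with RASV12 cells lost its call with the closest arrays averaged (adjusted p = 0.0732; range over 27 alternatives 1.52e-05 to 0.0732) and in 2 other alternatives, and the other 3 comparisons kept it in all 27.

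Orc6, the smallest subunit of the origin recognition complex, rose in the RASV12-first cells. Its signals were 1.74, 2.42 and 1.87 in shp53 cells, 2.38, 2.09 and 2.60 in RASV12 cells, 2.38, 3.33 and 3.31 in shp53-first cells and 2.58, 3.77 and 3.75 in RASV12-first cells. RASV12-first replicates 2 and 3 were the highest, and replicate 1 overlapped the RASV12 arrays. The difference was 1.36 ± 0.36 against shp53 cells (SE, n = 3; adjusted p = 0.0119) and 1.01 ± 0.36 against RASV12 cells (adjusted p = 0.0497). The latter call was lost without any of 9 of the 12 arrays, those other than shp53 replicate 2 and replicate 1 of both groups with 2 vectors (range over 27 alternatives 5.82e-05 to 0.541). Cdc6, the ATPase that works with Cdt1, passed against RASV12 cells, where it rose by 1.68 ± 0.53 in shp53-first (adjusted p = 0.0407) and 1.62 ± 0.53 in RASV12-first cells (adjusted p = 0.0339). A Cdc6 probe dimmer on average gave 0.94 ± 0.65 and 1.24 ± 0.65 in these comparisons and was not called in either. In shp53 cells it was not dimmer, at -3.46, -2.68 and -3.42 against -3.44, -3.11 and -3.46 for the probe used. Against shp53 cells it gave -0.08 and 0.22 and the probe used 1.35 and 1.29, none of them called. Gmnn, which encodes the Cdt1 inhibitor geminin, rose by 1.73 ± 0.42 in RASV12-first against RASV12 cells (adjusted p = 0.00926). Orc1, the ATPase subunit of the origin recognition complex, had differences of 0.94 to 1.61 that did not pass without a slide block (smallest adjusted p = 0.0559).

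The replicative helicase is the MCM ring with Cdc45 and the GINS complex. Of its 12 genes, 1, 6, 4 and 7 rose in shp53-first and RASV12-first cells against shp53 cells and then against RASV12 cells, and 0 fell. Of all genes 17.3%, 21.7%, 10.3% and 17.2% were called higher in this order. These shares are also the background for the counts of the other roles. Cdc45 was the only helicase gene called in all 4 comparisons. Its signals were -4.21, -3.62 and -4.30 in shp53 cells, -4.08, -4.84 and -4.41 in RASV12 cells, -3.68, -2.30 and -2.75 in shp53-first cells and -3.26, -2.42 and -2.27 in RASV12-first cells. Shp53-first replicate 1 was just below shp53 replicate 2, and every other array with both vectors was above all arrays with 1. The differences were 1.14 ± 0.38 and 1.40 ± 0.38 against shp53 cells (SE, n = 3; adjusted p = 0.0391 and 0.0133) and 1.54 ± 0.38 and 1.79 ± 0.38 against RASV12 cells (adjusted p = 0.0159 and 0.00457). The first of these lost its call without any of shp53 replicates 1 and 3, shp53-first replicates 2 and 3, RASV12 replicate 3 or RASV12-first replicate 2 (adjusted p = 0.0508 to 0.142; range over 27 alternatives 0.000229 to 0.852), and was -0.19 after normexp background correction.

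Mcm10, which helps to activate the loaded helicase, had the largest differences of the helicase genes against RASV12 cells, 2.08 ± 0.52 in shp53-first and 2.31 ± 0.52 in RASV12-first cells (SE, n = 3; adjusted p = 0.0157 and 0.00585). Of the 6 MCM ring genes, Mcm3 and Mcm6 were called in 3 comparisons, Mcm2 in 2 and, without a slide block, Mcm4, Mcm5 and Mcm7 in 0. Mcm6 rose by 1.64 ± 0.36 in RASV12-first against RASV12 cells (adjusted p = 0.00559), and Mcm2 by 1.58 ± 0.43 in RASV12-first against shp53 cells (adjusted p = 0.0124). Mcm4 had differences of 0.82 to 1.03 in the 4 comparisons, with its smallest adjusted p at 0.0715. Within the GINS complex, Gins1, Gins2 and Gins4 were each called in 1 comparison with RASV12-first cells. With each of the 12 arrays left out in turn, these calls were lost 10, 4 and 4 times. Gins3 was the member with the least spread in RASV12-first cells (SD 0.09, n = 3), and its differences were 0.12, 0.07, -0.24 and -0.29 with SE 0.17, none of them called.

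Polymerase alpha with its primase starts each new strand, and polymerases delta and epsilon extend the lagging and leading strands. Prim1, the catalytic primase subunit, had the largest log2 difference of all members in 3 of the 4 comparisons. On the arrays of replicates 1, 2 and 3, Prim1 read 0.67, 1.00 and 0.63 in shp53 cells, 0.49, 0.20 and 0.57 in RASV12 cells, 1.61, 2.91 and 2.78 in shp53-first cells and 2.40, 3.68 and 3.73 in RASV12-first cells. All 6 arrays with both vectors were above all 6 with 1, and replicate 1 was the lowest in each group with both. Prim1 rose by 1.67 ± 0.40 in shp53-first and 2.50 ± 0.40 in RASV12-first against shp53 cells (SE, n = 3; adjusted p = 0.00881 and 0.000654) and by 2.01 ± 0.40 and 2.85 ± 0.40 against RASV12 cells (adjusted p = 0.00562 and 0.000431), the last a fold of 7.20. The RASV12-first differences were called in all 27 alternatives. The shp53-first ones were not called in 4 alternatives each, among them the closest arrays averaged (adjusted p = 0.161 against shp53 and 0.143 against RASV12 cells, ranges over 27 alternatives 2.73e-06 to 0.161 and 4.47e-06 to 0.143).

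Pold1, the catalytic subunit of polymerase delta, was called in all 4 comparisons with differences of 1.19 to 1.35 (SE 0.36, n = 3; largest adjusted p = 0.0359). Pole2, a subunit of polymerase epsilon, rose against RASV12 cells by 1.44 ± 0.46 in shp53-first and 1.84 ± 0.46 in RASV12-first cells (adjusted p = 0.0423 and 0.00997). Pola2, the regulatory subunit of polymerase alpha, rose against shp53 cells by 1.11 ± 0.36 and 1.01 ± 0.36 (adjusted p = 0.036 and 0.0431), and the first was -0.32 after normexp background correction. Prim2, the regulatory primase subunit, passed in RASV12-first against shp53 cells at 0.89 ± 0.31 (adjusted p = 0.0382). The catalytic subunits Pola1 and Pole had differences of 0.59 to 1.26 and were called in 0 comparisons. Over the 7 genes of this role, 3, 4, 3 and 3 rose in the same order as above.

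**Figure D2:**
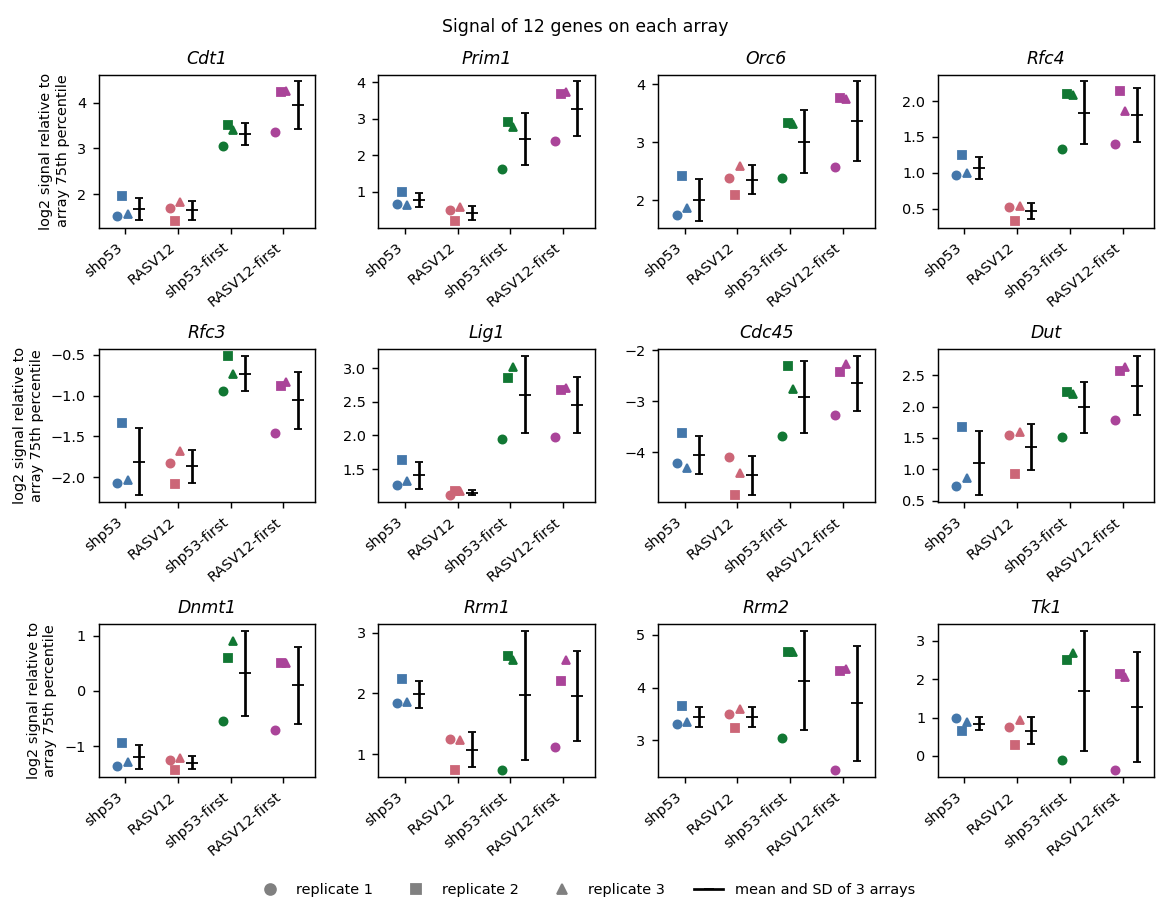
Log2 signal above the 75th percentile of its array (vertical axes, scaled for each gene) on the 12 arrays by group (horizontal axes), for the 9 genes given with every value and for Rrm1, Rrm2 and Tk1, which were picked after their values were seen. Symbols mark replicates 1 to 3, and the bars beside them the mean and SD of 3 arrays. Replicate 1, the circle, is the lowest point of both groups with 2 vectors in each panel.

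The sliding clamp Pcna tethers polymerases to DNA, and replication factor C loads it. Of the 6 genes of the clamp, its loader and the single-strand binding protein, 3, 3, 3 and 4 rose. Rfc4 and Rfc3, small subunits of the loader, were called in all 4 comparisons.

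On the arrays of replicates 1, 2 and 3, Rfc4 read 0.97, 1.25 and 0.99 in shp53 cells, 0.52, 0.33 and 0.54 in RASV12 cells, 1.33, 2.10 and 2.08 in shp53-first cells and 1.40, 2.14 and 1.87 in RASV12-first cells. Every array with both vectors was above every array with 1, and the RASV12 arrays were the lowest. Rfc4 rose by 0.77 ± 0.24 and 0.74 ± 0.24 against shp53 cells (SE, n = 3; adjusted p = 0.0284 and 0.0279) and by 1.37 ± 0.24 and 1.34 ± 0.24 against RASV12 cells (adjusted p = 0.00288 and 0.00167). The smaller differences against shp53 cells lost their call without shp53 replicate 1 or 3 (adjusted p = 0.0822 to 0.0884) or without replicate 2 or 3 of the group with both vectors (adjusted p = 0.0766 to 0.106). A dimmer Rfc4 probe was also called in the 4 comparisons, with differences of 1.25, 1.18, 1.45 and 1.38. For Rfc3 the signals were -2.07, -1.34 and -2.03 in shp53 cells, -1.83, -2.08 and -1.68 in RASV12 cells, -0.95, -0.52 and -0.73 in shp53-first cells and -1.46, -0.88 and -0.84 in RASV12-first cells. Among arrays with both vectors, RASV12-first replicate 1 alone lay below the highest shp53 array. Its difference was 1.08 ± 0.24 in shp53-first and 0.75 ± 0.24 in RASV12-first against shp53 cells (adjusted p = 0.00595 and 0.0273), and 1.13 ± 0.24 and 0.80 ± 0.24 against RASV12 cells (adjusted p = 0.00777 and 0.0237).

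Rfc2, another small loader subunit, passed in shp53-first against shp53 cells at 0.86 ± 0.31 (SE, n = 3, adjusted p = 0.0499). That call was lost without any of 10 of the 12 arrays (adjusted p up to 0.161). Rfc5 passed in no comparison (differences of 0.77 to 1.24, SE 0.54). Pcna rose by 0.90 ± 0.31 and 1.01 ± 0.31 in RASV12-first cells against shp53 and RASV12 cells (adjusted p = 0.0374 and 0.0276). Its 3 shp53 arrays read 3.47, 3.48 and 3.50, the smallest SD of any member in any group (0.01). Rpa2, a subunit of the single-strand binding protein, rose against RASV12 cells by 1.1 ± 0.35 and 1.20 ± 0.35 (adjusted p = 0.0404 and 0.0198).

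Okazaki fragments are trimmed by the nucleases Fen1 and Dna2 and sealed by DNA ligase 1. Lig1 rose in all 4 comparisons. On the arrays of replicates 1, 2 and 3, Lig1 read 1.26, 1.64 and 1.32 in shp53 cells, 1.11, 1.17 and 1.17 in RASV12 cells, 1.95, 2.85 and 3.01 in shp53-first cells and 1.97, 2.68 and 2.71 in RASV12-first cells. No array with both vectors overlapped an array with 1. The differences were 1.20 ± 0.28 and 1.04 ± 0.28 against shp53 cells (SE, n = 3; adjusted p = 0.00791 and 0.0124) and 1.46 ± 0.28 and 1.30 ± 0.28 against RASV12 cells (adjusted p = 0.00488 and 0.00492). Dna2 rose in RASV12-first cells by 2.11 ± 0.71 and 2.16 ± 0.71 (adjusted p = 0.0328 and 0.0346), and in shp53-first cells its differences were 0.94 ± 0.71 and 0.98 ± 0.71 (adjusted p = 0.322 and 0.346). Fen1 passed in RASV12-first against RASV12 cells at 1.37 ± 0.44 (adjusted p = 0.0317).

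Nucleotide synthesis was the role with the fewest calls. Of its 5 genes, 0, 1, 0 and 1 passed, Dut on both occasions. Dut, whose product removes dUTP before it can enter DNA, read 0.74, 1.68 and 0.86 in shp53 cells, 1.54, 0.93 and 1.60 in RASV12 cells, 1.52, 2.24 and 2.20 in shp53-first cells and 1.79, 2.57 and 2.64 in RASV12-first cells. The RASV12-first arrays lay above all arrays with 1 vector, and the shp53-first arrays overlapped shp53 replicate 2 and the RASV12 arrays. Dut rose in RASV12-first cells by 1.24 ± 0.33 against shp53 cells (SE, n = 3; adjusted p = 0.0119) and by 0.98 ± 0.33 against RASV12 cells (adjusted p = 0.0397). The first was lost without shp53 replicate 1 (adjusted p = 0.0511; range over 27 alternatives 3.71e-06 to 0.488). The second was lost without any array of RASV12 cells, RASV12-first replicate 2 or 3, or shp53 replicate 3 (adjusted p = 0.0511 to 0.128; range 5.26e-05 to 0.618).

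Rrm1 and Rrm2 form ribonucleotide reductase, Tk1 is the thymidine kinase of the salvage route and Tyms is thymidylate synthase. Tk1, chosen here after its values were seen, read 0.98, 0.66 and 0.88 in shp53 cells, 0.76, 0.28 and 0.95 in RASV12 cells, -0.11, 2.51 and 2.68 in shp53-first cells and -0.37, 2.14 and 2.06 in RASV12-first cells. Replicates 2 and 3 of both groups with 2 vectors were the 4 highest arrays, and replicate 1 of both groups gave the 2 lowest. Rrm2 read 3.31, 3.65 and 3.34 in shp53 cells, 3.49, 3.23 and 3.60 in RASV12 cells, 3.04, 4.68 and 4.67 in shp53-first cells and 2.43, 4.31 and 4.35 in RASV12-first cells. It split in the same way. Rrm1 read 1.85, 2.24 and 1.86 in shp53 cells, 1.26, 0.74 and 1.23 in RASV12 cells, 0.75, 2.61 and 2.55 in shp53-first cells and 1.12, 2.20 and 2.55 in RASV12-first cells. Its mean in shp53-first and RASV12-first cells, 1.97 and 1.95, lay next to that of the shp53 cells, 1.98, with an SD of 1.06 and 0.74 against 0.23 (n = 3). The differences of Rrm1 were -0.01 ± 0.49 and -0.03 ± 0.49 against shp53 cells and 0.89 ± 0.49 and 0.88 ± 0.49 against RASV12 cells. Tyms went from a difference of 0.74 ± 0.33 in shp53-first against shp53 cells to -0.57 ± 0.33 in RASV12-first against RASV12 cells, and none of its comparisons passed.

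The chromatin replication genes restore histones and DNA methylation behind the fork, and 2, 2, 2 and 3 of the 4 rose. Dnmt1, the maintenance DNA methyltransferase, was called in all 4 comparisons. On the arrays of replicates 1, 2 and 3, Dnmt1 read -1.35, -0.94 and -1.29 in shp53 cells, -1.24, -1.43 and -1.21 in RASV12 cells, -0.55, 0.60 and 0.90 in shp53-first cells and -0.71, 0.50 and 0.51 in RASV12-first cells. Replicate 1 of either group with both vectors lay between the 1-vector arrays and replicates 2 and 3, with no overlap. The differences were 1.51 ± 0.40 and 1.29 ± 0.40 against shp53 cells (SE, n = 3; adjusted p = 0.0134 and 0.0223) and 1.61 ± 0.40 and 1.39 ± 0.40 against RASV12 cells (adjusted p = 0.0152 and 0.0191). Each of these was lost without replicate 2 or 3 of its group with both vectors (adjusted p = 0.0503 to 0.0822), and those of RASV12-first cells also without shp53 replicate 1 or 3 (adjusted p = 0.0694 and 0.065) or RASV12 replicate 2 (adjusted p = 0.053), where these arrays are in the comparison. Chaf1a, the large subunit of chromatin assembly factor 1, rose against shp53 cells by 1.34 ± 0.43 and 1.27 ± 0.43 (adjusted p = 0.0318 and 0.0336). Its partner Chaf1b rose against RASV12 cells by 1.15 ± 0.31 and 1.11 ± 0.31 (adjusted p = 0.0211 and 0.0161). Uhrf1, which guides Dnmt1 to newly copied DNA, passed in RASV12-first against RASV12 cells at 1.51 ± 0.46 (adjusted p = 0.0258), and a dimmer Uhrf1 probe gave 2.24 there (adjusted p = 0.0171). That probe was also called in RASV12-first against shp53 (adjusted p = 0.0413) and shp53-first against RASV12 cells (adjusted p = 0.0468), where the brighter one was not.

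Counted over the 4 comparisons, 8 members were called in all of them, namely Cdt1, Cdc45, Prim1, Pold1, Rfc3, Rfc4, Lig1 and Dnmt1. A further 3 were called in 3 comparisons, 11 in 2, 8 in 1 and 12 in 0. The 4 comparisons share groups, and the matching shares of all genes were not computed, so these counts have no background. E2F-type letters were present in the promoter windows of 5 of the 8 called in all (Cdt1, Dnmt1, Lig1, Pold1 and Rfc3), in 5 of the 16 with a window that were called in 1 to 3, and in 5 of the 10 with a window that were called in 0. The highest group mean was that of the RASV12-first cells for 25 members, shp53-first for 14, RASV12 for 2 and shp53 for 1. Over all genes these shares were 28.3%, 17.1%, 26.5% and 28.1%. The lowest mean was that of RASV12 cells for 28 members (19.7% of all genes) and of shp53 cells for 14 (31.6% of all genes).

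**Figure D3:**
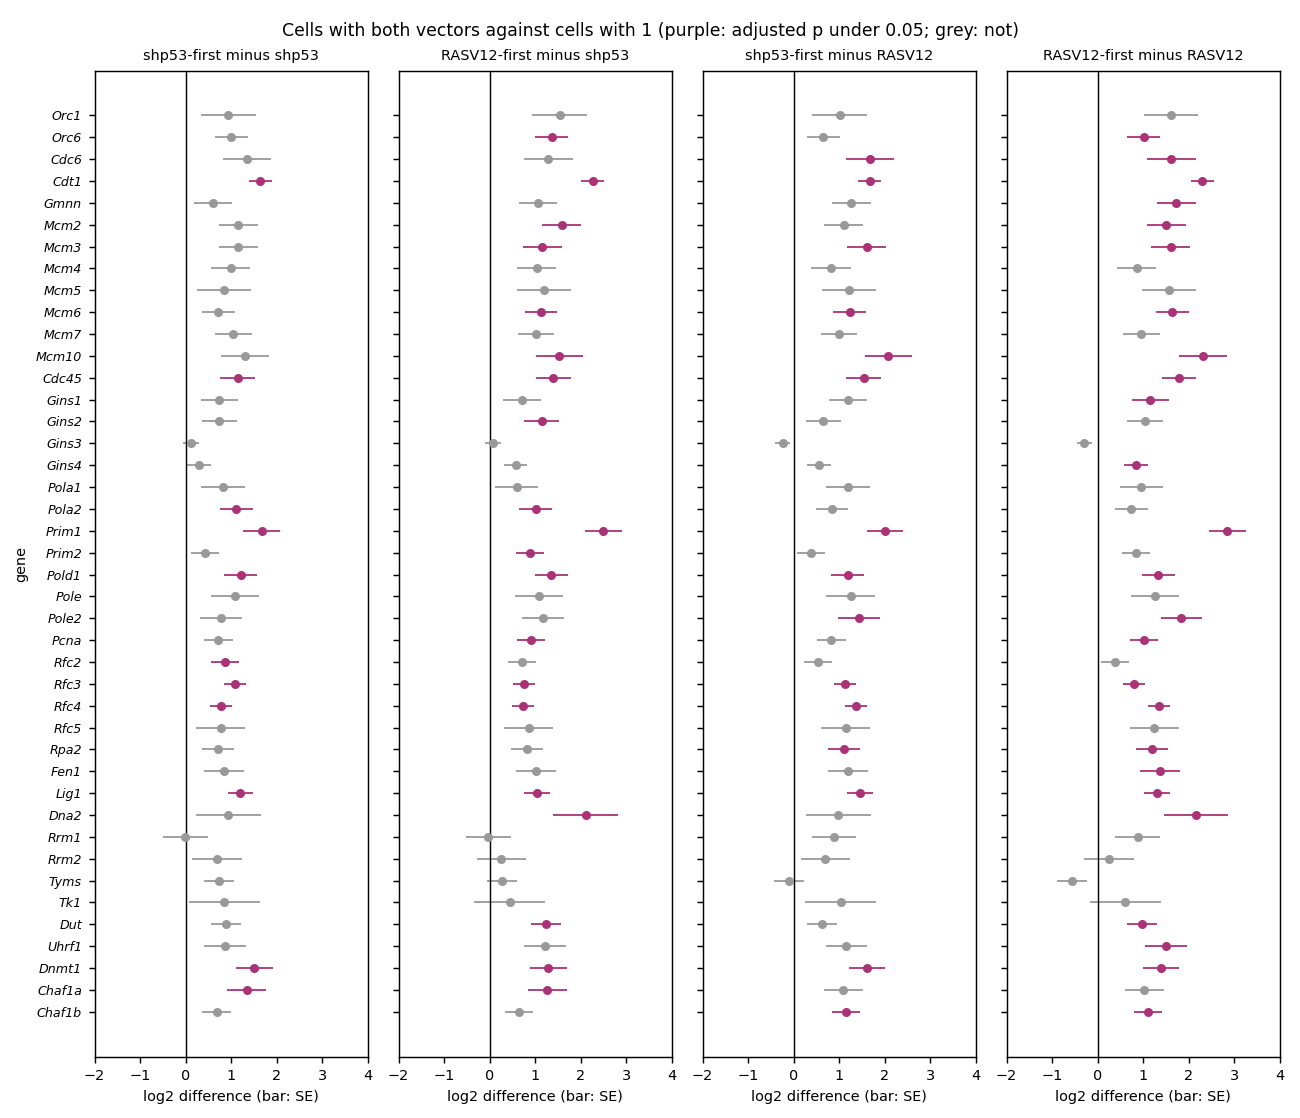
Log2 difference from limma with its SE (horizontal axes) for each of the 42 genes (vertical axis, in the order of roles) in the 4 comparisons of cells with both vectors against cells with 1. Purple marks the 11, 20, 15 and 25 genes with an adjusted p under 0.05; nearly all points lie right of 0, Cdt1 and Prim1 far to the right in the RASV12-first cells, and Gins3 lies close to 0 in all 4 panels.

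The arrays of both groups with 2 vectors fell into a low replicate 1 and high replicates 2 and 3. The median over the 42 members was 0.57, 2.0 and 1.84 on shp53-first replicates 1, 2 and 3 and 0.89, 2.13 and 2.06 on RASV12-first replicates, against 0.21 to 0.73 on the 6 arrays with 1 vector. The median of all genes was between -0.40 and -0.31 on the 12 arrays. Replicate 1 was the lowest array of its group for 42 of 42 members in shp53-first cells and for 41 of 42 in RASV12-first cells, where 43.7% and 38.2% of all genes were lowest on it. The members' median SD was 0.72 and 0.69 in these groups and 0.21 and 0.30 in shp53 and RASV12 cells (n = 3 arrays each), while that of all genes was 0.26, 0.28, 0.17 and 0.19. Tk1 had the largest SD in both, 1.57 and 1.42.

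Replicates 2 and 3 lay above all 6 arrays with 1 vector for 41 and 41 members in shp53-first cells and for 39 and 40 in RASV12-first cells, and replicate 1 did so for 14 and 18. For all genes this share was between 22.1% and 28.4% on these 6 arrays. The members that were above on replicate 1 of both groups were Cdt1, Mcm2, Prim1, Pold1, Pcna, Rfc4, Lig1 and Dnmt1. Below all 6 arrays with 1 vector on replicate 1 were Dna2, Rrm2 and Tk1 in shp53-first cells and Rrm2, Tyms and Tk1 in RASV12-first cells, 3 members each, where 28.3% and 28.7% of all genes were below.

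Each slide held 1 array of each group with the same replicate number, so differences could also be taken within a slide. The members' median differences within replicates 1, 2 and 3 were 0.16, 1.17 and 1.42 for shp53-first minus shp53, 0.35, 1.25 and 1.60 for RASV12-first minus shp53, 0.05, 1.89 and 1.32 for shp53-first minus RASV12, and 0.26, 1.90 and 1.40 for RASV12-first minus RASV12. The number of members over 2-fold higher was 2, 28 and 38 in the first of these and 2, 39 and 34 in the last, against 9.5% to 13.2% of all genes. Over 2-fold lower were 2 members within replicate 1 and 0 within replicates 2 and 3, in both, against 13.9% to 18% of all genes. A difference in the same direction on all 3 slides was upward for 26, 33, 23 and 27 members and downward for 0, 0, 1 and 1, where all genes gave 33.5%, 34.7%, 23.2% and 27.4% upward and 32.7%, 33.8%, 29.2% and 34.2% downward. With the slide (the replicate number) as a block in the limma fit, 18, 26, 17 and 29 members were called, while 38.4%, 46.2%, 25.9% and 39.5% of all genes were. Of the 12 members called in no comparison without the block, Orc1 passed in RASV12-first against shp53 and RASV12 cells (adjusted p = 0.0208 and 0.0205), Mcm7 in both groups against shp53 cells (adjusted p = 0.0406 and 0.0393) and Mcm5 in RASV12-first against RASV12 cells (adjusted p = 0.0388).

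Some other genes moved with the split of the arrays. The mitosis and proliferation genes Mki67, Cdk1 and Ccnb1 read 0.97, 0.87 and 0.73 on shp53-first replicate 1 and 1.80, 1.92 and 1.13 on RASV12-first replicate 1. On replicates 2 and 3 of these groups they read between 2.64 and 3.56. In shp53 cells they read 1.61 to 2.58, above shp53-first replicate 1, and in RASV12 cells 0.15 to 1.27. The fibroblast list (10 genes), as a summed linear level in multiples of each array's 75th percentile signal, was 500 on shp53-first replicate 1 and 330 and 390 on replicates 2 and 3, and 648, 375 and 412 on the RASV12-first arrays, with Col3a1 at log2 levels of 5.09 and 4.95 on the replicate 1 arrays and 2.25 to 2.86 on the others. Cdkn1a, which encodes p21, read 2.85, 2.69 and 2.88 on shp53-first replicates 1, 2 and 3 and 2.52, 2.25 and 2.33 on the RASV12-first ones. Its replicate 1 thus lay between the others in shp53-first cells and was the highest in RASV12-first cells. It read 2.14 to 2.61 in shp53 cells and 3.52 to 3.82 in RASV12 cells. The epithelial marker list (5 genes) had a summed level of 11.4 on shp53-first replicate 1 and 9.87 on RASV12-first replicate 1, 1.59 to 1.88 on their other arrays, 7.47 to 7.78 in RASV12 cells and 1.15 to 1.40 in shp53 cells. On these replicate 1 arrays nearly all of it was Krt18 (log2 level 3.48 and 3.27), while on shp53 replicate 2 Krt19 (-0.44) exceeded Krt18 (-0.63). The defining markers Epcam and Cdh1 were not above background on any array. The macrophage list (7 genes) summed to 63.4 and 63.2 on shp53 replicates 1 and 3 and 5.40 to 19.9 on every other array, with Ptprc and Cx3cr1 not above background in any cells with RASV12. The part of these genes in the replication values was not tested.

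**Figure D4:**
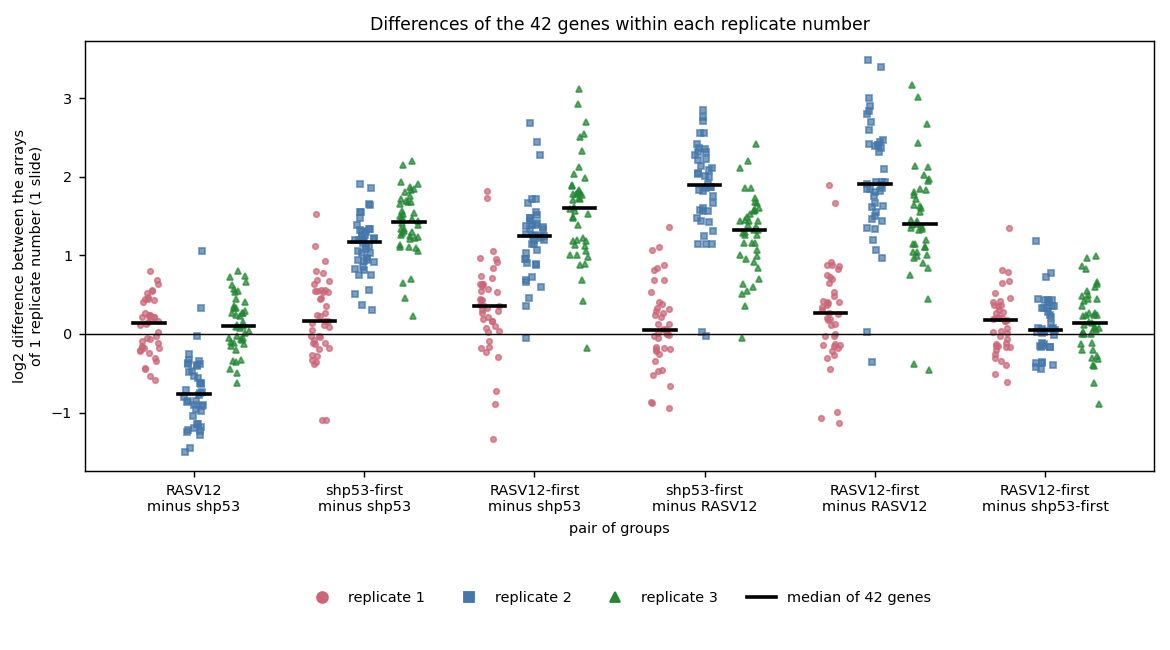
Log2 difference between arrays of the same replicate number, which lay on the same slide (vertical axis), for the 42 genes (points) in the 6 pairs of groups (horizontal axis), with black lines at the median of the genes. In the pairs that set both vectors against 1, the medians are 0.05 to 0.35 within replicate 1 and 1.17 to 1.90 within replicates 2 and 3, and for the 2 vector orders they are 0.05 to 0.18.

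Between the cells with a single vector, RASV12 against shp53, 0 of 42 members were called in either direction, where 27.1% of all genes were called (14.3% higher and 12.8% lower). At an unadjusted p under 0.05 the limma fit gave 2 of the 42 members, Tyms and Rfc4, against 5559 of all 14451 genes. The members' median difference was -0.17, against 0.05 over all genes. Tyms was higher on all 3 RASV12 arrays (-2.67, -2.59 and -2.56) than on the shp53 arrays (-3.36, -3.64 and -3.36), a difference of 0.85 ± 0.33 (SE, n = 3; adjusted p = 0.0844). Rfc4 was lower on all 3 RASV12 arrays, by -0.60 ± 0.24 (adjusted p = 0.0883). The dimmer Rfc4 probe gave -0.20 ± 0.41 here (adjusted p = 0.756), and its arrays overlapped between the groups. Rrm1 did not overlap either, at -0.90 ± 0.49 (adjusted p = 0.21), as with Tyms and the brighter Rfc4 probe.

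In all, 1 member lay higher and 14 lower in RASV12 cells with no overlap, where 27.2% and 23.9% of all genes did. The groups differed most on the arrays outside their closest pairs, since 36 of 42 members were highest on replicate 2 among shp53 arrays and 39 of 42 were lowest on replicate 2 among RASV12 arrays, against 50% and 46.9% of all genes. Within slides the median was 0.14, -0.76 and 0.10 for replicates 1, 2 and 3. Without the arrays outside the closest pairs 17 members were called higher and 6 lower, with 58.5% of all genes called, among them Dut at 0.77 ± 0.08 (adjusted p = 0.000251) and Rrm1 at -0.60 ± 0.12 (adjusted p = 0.00532). Fitted alone, the 2 groups gave 1 higher and 4 lower members, namely Tyms (adjusted p = 0.00407), and Rfc4, Rrm1, Mcm10 and Gmnn (adjusted p = 0.0162 to 0.0454), with 33.3% of all genes called. Tyms turned to -0.56 after normexp background correction (adjusted p = 0.466). In the fit of all groups, 2 members (Tyms at adjusted p = 0.0157 and Rfc4 at 0.0349) were called without shp53-first replicate 1, and Tyms (adjusted p = 0.0464) without shp53-first replicate 3. Leaving these arrays out changes this comparison only through the shared spread.

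The comparison of RASV12-first with shp53-first cells asks whether the order of the same pair of vectors matters. None of the 42 members was called (0 higher, 0 lower), where 15.8% of all genes were called, 7.34% higher and 8.46% lower. An unadjusted p under 0.05 in the limma fit was reached by 1 member, Cdt1, against 4174 of all 14451 genes. The median difference was 0.10, against 0 over all genes. With each array centred on its median, the members' median was 0.35 and that of all genes 0.25. For 0 members did the arrays of the 2 orders separate in either direction, against 15.9% and 16.1% of all genes.

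The 95% intervals show how far these data can tell the orders apart. The difference of Cdt1 was 0.63 ± 0.25 (SE, n = 3; interval 0.06 to 1.19, adjusted p = 0.13), that of Prim1 0.84 ± 0.40 (interval -0.05 to 1.73, adjusted p = 0.199) and that of Dna2 1.17 ± 0.71 (interval -0.40 to 2.75, adjusted p = 0.314). For Mcm3 it was 0.00 ± 0.42, with an interval of -0.92 to 0.92. Gins3 had the narrowest interval, -0.43 to 0.33.

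Replicate numbers deviated together in these 2 groups. Dna2 was higher in the RASV12-first array by 1.35, 1.18 and 0.99 within replicates 1, 2 and 3, and Prim1 by 0.79, 0.77 and 0.96. In a fit of the 2 groups with the replicate number as a block, both were called, Dna2 at 1.17 ± 0.13 (adjusted p = 0.0115) and Prim1 at 0.84 ± 0.11 (adjusted p = 0.0187), with 17.3% of all genes called. Cdt1 was higher by 0.30, 0.72 and 0.87 and was not called there (0.63 ± 0.16, adjusted p = 0.0685). In the fit of all groups, leaving out RASV12-first replicate 1 called 2 members higher, Cdt1 (adjusted p = 0.0107) and Prim1 (adjusted p = 0.0304), and leaving out shp53-first replicate 1 called Tyms lower (adjusted p = 0.038).

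Within each of the 3 replicate numbers, RASV12-first cells read higher for 17 members and lower for 6, against 30.8% and 28% of all genes. The 17 held 4 of the 5 licensing genes (Orc1, Orc6, Cdt1 and Gmnn), 5 helicase genes, Prim1, Prim2, Pole2, Rpa2, Fen1, Dna2, Dut and Uhrf1. The 6 were Rrm2, Tyms, Tk1, Rfc2, Rfc3 and Dnmt1. The within-replicate differences of Rrm2 were -0.61, -0.37 and -0.32 and those of Tk1 -0.25, -0.37 and -0.62, and Dut, also of nucleotide synthesis, was among the 17. Without the arrays outside the closest pairs, 15 members were called higher and 4 lower (Rrm2, Tyms, Tk1 and Pola1), with 48% of all genes called.

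**Figure D5:**
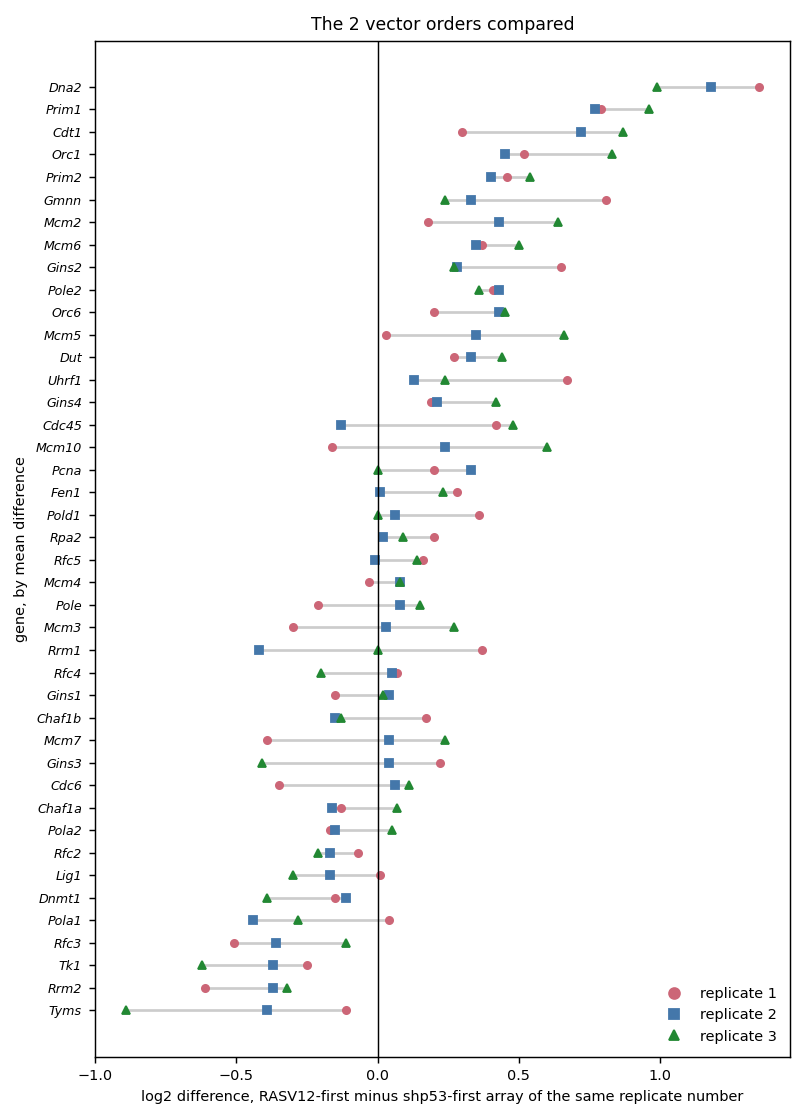
Log2 difference between the RASV12-first and the shp53-first array of each replicate number (horizontal axis) for the 42 genes (vertical axis, ordered by mean difference); symbols mark the 3 replicate numbers. Dna2, Prim1 and Cdt1 lie farthest right, at 0.30 to 1.35, and Tk1, Rrm2 and Tyms farthest left, and 19 of the 42 genes have points on both sides of 0.

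A list of 60 other genes of replication, fork protection, purine and pyrimidine synthesis and histone supply was read in the same fit, and 59 of them were tested. Against shp53 cells 18 rose and 3 fell in shp53-first and 19 rose and 3 fell in RASV12-first cells, and against RASV12 cells 16 rose and 3 fell, and 22 rose and 4 fell. In the same order 17.3%, 21.7%, 10.3% and 17.2% of all genes were called higher and 20.3%, 23.8%, 15.1% and 21.7% lower. Their medians were 0.60, 0.69, 0.51 and 0.66. Timeless, which protects stalled forks, rose by 1.56 ± 0.29 and 1.97 ± 0.29 against shp53 cells (SE, n = 3; adjusted p = 0.00201 and 0.00037) and by 1.92 ± 0.29 and 2.32 ± 0.29 against RASV12 cells (adjusted p = 0.00130 and 0.000192). Its array values were 1.40 to 2.61 with both vectors and -0.23 to 0.42 with 1.

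Impdh1, which commits purine synthesis towards guanine nucleotides, fell in all 4, with differences of -1.24, -0.91, -1.47 and -1.14 (SE 0.15; largest adjusted p = 0.000907). Its arrays read 0.19 to 0.99 with both vectors and 1.54 to 1.97 with 1. Paics, of de novo purine synthesis, rose against shp53 cells by 0.90 ± 0.15 and 1.02 ± 0.15 (adjusted p = 0.00120 and 0.000418), and the subunits Pold3 and Rpa3 rose in RASV12-first against RASV12 cells by 1.47 ± 0.23 and 1.38 ± 0.21 (adjusted p = 0.000763 and 0.000618). Between RASV12 and shp53 cells 2 of the 59 genes were higher and 3 lower, where 14.3% and 12.8% of all genes were. Among the lower ones was the dNTP hydrolase Samhd1 at -1.29 ± 0.30 (adjusted p = 0.0102). Between the 2 orders 0 were called, against 15.8% of all genes. In that comparison 3 of the 59 had an unadjusted p under 0.05 in the limma fit, against 4174 of all 14451 genes.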

How the data were processed

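RNA of fibroblasts was measured on 12 1-colour Agilent arrays, 3 per group. The deposited array files hold background-subtracted, spatially detrended processed intensities from Agilent Feature Extraction (11.5.1.1 per the file headers, 10.7.3.1 per the submitters' processing notes), with median signal and local background intensities and flags per spot, not scaled between arrays. The headers name genome build mm9, whose coordinates were not used, and promoter sequences and gene names came from RefSeq tables (GRCm38.p6). The authors' deposited log2 table covers 25916 probes. Set against the array files it held log2 signal minus each array's 75th percentile minus the median of the shp53 arrays (r = 0.987 to 1, column medians -0.0067 to 0.17), and it served as an alternative.

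Here log2 processed intensities minus the 75th percentile of each array's 43020 spots that are not controls were averaged over the spots of a probe, after 1717 spot values marked as outliers were left out; 0 were saturated. Of 39429 probes, 23909 were kept because all 3 arrays of some group showed them well above background, and the brightest probe stood for a gene. Probes were named by accession, and 28330 of the 39429 had 1 gene name. One limma fit (limma 3.58.1 in R 4.3.3) covered 4 groups and 6 comparisons, with Benjamini-Hochberg adjustment over 14451 genes and calls at an adjusted p under 0.05. The number of arrays limits the precision: an exact permutation test of 3 against 3 cannot go below 0.1. The fit was tested on simulated data. The simulated arrays were drawn independently, so that test cannot show how the fit behaves with arrays as close as the pairs here.

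Slide and replicate number coincide, each slide holding 1 array of each group. Deviations of arrays with the same number correlated between -0.34 and 0.60 over 18 pairs, and at 0.60, 0.45 and 0.32 between the groups with both vectors, which makes the numbers a pairing there only; the pairing comes from the labels and the slides.

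The members and gene lists were chosen with earlier results of these data known. Values in every array are given for the called members with the smallest adjusted p in each comparison and role; Rrm1, Rrm2 and Tk1 in full, and other members given with single values, were chosen after their values were seen. The list of 60 other genes was handled likewise, with up to 4 called genes per comparison. Alternatives were quantile and median scaling, normexp background correction (offset 50, on the median signal) as it stands and, added later, with local backgrounds more than 5 times their array's median set to that median, other probe rules and filters, a replicate block, fits of 2 groups alone, the authors' table, averaging the closest arrays, and leaving out arrays singly, by replicate number (added later) or all 4 outside the closest pairs.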

Additional observations from a re-analysis of the deposited data

How the results depend on the processing

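The counts of members called in the 4 comparisons of both vectors against 1 (11, 20, 15 and 25, in the order shp53-first and RASV12-first against shp53 cells, then against RASV12 cells) stayed within 1.5 times under quantile scaling, the mean of a gene's probes, both other filters on dim probes, the authors' table and fits of 2 groups alone. Without the arrays outside the closest pairs they were 41, 40, 40 and 41, with the closest arrays averaged 1, 2, 0 and 2, and with normexp background correction 1, 2, 0 and 4. Normexp with extreme local backgrounds replaced, chosen after seeing the data, gave 15, 23, 15 and 26. Centring each array on its median gave 7 and 32 against shp53 cells. That scaling moved the median of all genes to 0.11 in shp53-first and 0.36 in RASV12-first against shp53 cells, where the members' medians were 0.95 and 1.39. In RASV12 against shp53 cells and RASV12-first against RASV12 cells it moved it to 0.12 and 0.19 (members -0.10 and 1.48). With the replicate block shp53-first against shp53 cells had 18 members called, and the other comparisons had 26, 17 and 29. The block changed no call between RASV12 and shp53 cells or between the 2 vector orders when all 4 groups were in the fit.

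Between RASV12 and shp53 cells (0 called), the fit of the 2 groups alone called 5 and the fit without the arrays outside the closest pairs 23. Between the 2 orders (0 called), the latter called 19, and the 2 groups alone with the replicate block, chosen after seeing the data, called 2. Leaving out single arrays, or all arrays of a replicate number (chosen after seeing the data), gave 0 to 4 members in RASV12 against shp53 cells, 1 to 37 in shp53-first and 2 to 39 in RASV12-first against shp53 cells, 0 to 38 and 2 to 40 against RASV12 cells, and 0 to 2 between the orders. The shares of all genes called are not given for these settings, nor for normexp and the other scalings, so the member counts lack a background there. The lowest count of each comparison of both vectors against 1 came without replicate number 3 and the highest without replicate number 1. In these 4 comparisons the cause of the changes was not tested. Of the gene-level values, 3 turned their sign, each under normexp as it stands: Cdc45 and Pola2 in shp53-first against shp53 cells (adjusted p = 0.852 and 0.758) and Tyms in RASV12 against shp53 cells (adjusted p = 0.466). A further 595 of the gene-level values lost their call, 15 gained one and 1954 kept their side of the threshold.

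With 3 arrays per group, the 95% intervals between the orders were up to 3.47 log2 units wide (Tk1), and a difference that did not pass does not show that the orders match. Bulk arrays give no counts of dividing cells. Every member was well above background on all arrays, but the 3 genes that turned their sign under normexp are dim ones, and sets of probes for a gene were available for only 4 members. The 6 comparisons share arrays and were not independent.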
